A study of Mus musculus with 6 samples.

Results

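The 6 genes described here are the aryl hydrocarbon receptor gene Ahr, its partner Arnt, its repressor Ahrr, and its target genes Cyp1a1, Cyp1b1 and Tiparp, out of 56262 genes in the count table. They were chosen by their known roles in 1 pathway, and selected with the R/R against WT difference of Cyp1a1 already seen in these lungs, so their values in that contrast are given as a description with no test. RNA-seq was performed on lungs of 3 WT mice and 3 homozygous R/R littermates, all 8 weeks of age, untreated and on a C57BL/6 background. R/R mice carry a germline knock-in of the RNA-binding protein RBM47 in which K329R and K332R remove lysines to block attachment of the ubiquitin-like protein ISG15, and every cell of the lung carries the substitutions. The number of founder lines behind the R/R mice and the time of day at which lungs were taken are not given in the sources used here.

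AHR is a transcription factor held in the cytoplasm by HSP90 and its co-chaperones until a ligand binds, such as a dioxin, a polycyclic hydrocarbon or a tryptophan derivative. The liganded receptor moves to the nucleus, pairs with ARNT, binds short DNA elements and switches on a gene battery led by Cyp1a1, whose product oxidizes many AHR ligands. AHRR competes with AHR for ARNT and DNA, and TIPARP modifies AHR and limits its activity, so that both targets feed back on the pathway. In the lung, Cyp1a1 is known to be induced in endothelial cells and in epithelial cells of airways and alveoli.

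Library totals were 16815020 to 18071818 counts in R/R lungs and 16501092 to 18141067 in WT lungs. Levels are CPM, each gene's share of a library's counts on a per-million scale, after TMM scaling, and 17120 genes had enough counts to be tested with edgeR's quasi-likelihood test. A call required an adjusted p under 0.05 (Benjamini-Hochberg, over all tested genes), which 300 genes (1.75%) met, 111 of them higher (0.648%) and 189 lower (1.1%) in R/R lungs. The mRNA of Rbm47 itself was 33.4 ± 0.712 CPM (SD, n = 3) in R/R and 31.2 ± 2.89 CPM (SD, n = 3) in WT lungs, with overlapping genotypes, and gene counts do not show the substituted codons. Lung markers of endothelial, club, ciliated and alveolar cells were present in every lung, whereas 5 of 6 hepatocyte markers stayed at 3 counts or fewer in every lung, and 2 of them were at 0.

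The AHR-ARNT dimer reads a short core, GCGTG, so the sequences around the transcription starts of the members are shown with each match to that core in capitals. RefSeq promoter windows of 300 bases, 250 before the start and 50 after it, were available for 5 of the 6 genes on GRCm38.p6. A capital CACGC is the same core on the opposite strand.

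Cyp1a1 (chr9:57697363-57697662, + strand): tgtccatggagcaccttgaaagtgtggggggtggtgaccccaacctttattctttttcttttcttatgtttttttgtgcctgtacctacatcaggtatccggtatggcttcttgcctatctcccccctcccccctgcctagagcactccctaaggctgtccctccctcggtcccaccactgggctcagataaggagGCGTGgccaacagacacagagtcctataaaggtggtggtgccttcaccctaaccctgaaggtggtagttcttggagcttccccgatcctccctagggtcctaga
Cyp1b1 (chr17:79715012-79715311, - strand): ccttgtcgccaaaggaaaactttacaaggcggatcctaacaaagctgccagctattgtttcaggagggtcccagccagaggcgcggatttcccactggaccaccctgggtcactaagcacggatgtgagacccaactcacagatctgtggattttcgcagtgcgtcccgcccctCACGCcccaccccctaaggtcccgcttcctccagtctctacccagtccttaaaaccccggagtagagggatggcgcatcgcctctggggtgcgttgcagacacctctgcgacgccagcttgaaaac
Tiparp (chr3:65528197-65528496, + strand): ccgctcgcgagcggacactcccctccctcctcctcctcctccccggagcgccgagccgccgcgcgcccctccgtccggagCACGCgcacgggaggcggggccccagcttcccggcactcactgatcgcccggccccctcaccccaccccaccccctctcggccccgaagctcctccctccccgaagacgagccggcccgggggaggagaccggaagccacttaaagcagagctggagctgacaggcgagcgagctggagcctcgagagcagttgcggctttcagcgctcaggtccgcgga
Ahrr (chr13:74292282-74292581, - strand): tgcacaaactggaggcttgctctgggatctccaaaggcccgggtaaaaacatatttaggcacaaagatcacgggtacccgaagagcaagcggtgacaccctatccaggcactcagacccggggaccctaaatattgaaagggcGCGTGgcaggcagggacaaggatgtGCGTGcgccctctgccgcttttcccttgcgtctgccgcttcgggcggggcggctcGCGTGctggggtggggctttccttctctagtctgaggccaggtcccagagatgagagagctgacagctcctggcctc
Arnt (chr3:95434140-95434439, + strand): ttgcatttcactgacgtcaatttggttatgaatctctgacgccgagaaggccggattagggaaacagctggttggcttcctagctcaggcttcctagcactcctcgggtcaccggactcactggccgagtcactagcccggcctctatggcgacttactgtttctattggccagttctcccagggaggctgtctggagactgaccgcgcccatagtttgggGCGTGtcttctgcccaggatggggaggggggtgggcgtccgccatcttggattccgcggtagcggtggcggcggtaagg

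The Cyp1a1 window held 1 core, at -54 to -50 from the start. Cyp1b1 held 1 on the opposite strand at -76 to -72, Tiparp 1 on the opposite strand at -170 to -166, and Arnt 1 at -29 to -25. Ahrr held 3 cores, at -107 to -103, -82 to -78 and -27 to -23, of which 1 had the extended form TNGCGTG, a longer motif that contains the core. Over 32851 RefSeq windows of the same length, 32.4% held at least 1 core on either strand, 3.91% held 3 or more, and 5.07% held the extended form. The 5 member windows had a GC content of 54% to 73.7%, and among windows with a GC content of at least 54% the share with a core was 51.7%. The known enhancer of Cyp1a1 lies farther upstream than this window, and a match of letters is not a bound site.

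Cyp1a1, the cytochrome P450 used most widely as a readout of AHR activity, stood higher in R/R lungs. Its level was 78.6, 84.2 and 78.3 CPM in the 3 R/R lungs and 45.1, 48.0 and 44.1 CPM in the 3 WT lungs. All R/R lungs lay above all WT lungs, with a wide gap between the genotypes and little spread inside each. The mean was 80.4 ± 3.28 CPM (SD, n = 3) in R/R and 45.7 ± 1.99 CPM (SD, n = 3) in WT lungs, a log2 fold change of 0.81 ± 0.06 (SE), or 1.76-fold. Raw counts behind these values were 1330 to 1417 in R/R and 742 to 869 in WT lungs, so the difference does not rest on sparse counts. Leaving out any 1 lung moved the log2 fold change only between 0.78 and 0.85. The gene (ENSMUSG00000032315.6) spans chr9:57687928-57703824 on the + strand, and its RefSeq window above lies inside that interval. Among the tested genes, 151 (0.882%) had a log2 fold change at least as large.

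Cyp1b1, the sister enzyme that oxidizes polycyclic hydrocarbons and estrogens, had lower and more variable counts. It measured 9.27, 12.2 and 9.37 CPM in R/R lungs and 7.96, 8.11 and 8.84 CPM in WT lungs. The genotypes did not overlap, but the gap between the nearest lungs was small, and R/R replicate 2 stood apart as the highest lung, as it did for Cyp1a1. The means were 10.3 ± 1.66 CPM (SD, n = 3) and 8.30 ± 0.472 CPM (SD, n = 3), a log2 fold change of 0.31 ± 0.14 (SE). Without R/R replicate 2 that value was 0.17. Cyp1b1 (ENSMUSG00000024087.4) lies at chr17:79701537-79715061 on the - strand.

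Tiparp, which encodes the mono-ADP-ribosyltransferase that restrains AHR, measured 35.7, 41.4 and 39.9 CPM in R/R lungs and 35.8, 39.4 and 38.6 CPM in WT lungs. The genotypes overlapped over nearly their whole range. The log2 fold change was 0.04 ± 0.08 (SE), and it was -0.00736 to 0.10 when 1 lung was left out. Tiparp (ENSMUSG00000034640.9, chr3:65528410-65555518, + strand) overlaps at its 5′ end with the pseudogene 4931440P22Rik on the other strand, and reads from the 2 could not be told apart because the counting used no strand. That pseudogene measured 2.07 to 2.63 CPM.

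Ahr, the receptor itself, measured 252, 218 and 220.2 CPM in R/R lungs and 236, 238 and 251 CPM in WT lungs. R/R replicate 1 was the highest of all 6 lungs and the other two R/R lungs were the lowest, so the genotypes overlapped. The means were 230.0 ± 19.1 CPM (SD, n = 3) and 242 ± 8.16 CPM (SD, n = 3), a log2 fold change of -0.07 ± 0.07 (SE). Ahr (ENSMUSG00000019256.17, chr12:35497974-35535038, - strand) overlaps the lincRNA Gm48236 on the + strand, which measured 0.12 to 0.77 CPM.

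Arnt, the obligate partner of AHR and of the hypoxia-inducible factors, was the steadiest of the 6 genes. It measured 115, 114 and 114 CPM in R/R lungs and 109, 118 and 112 CPM in WT lungs, with all R/R lungs inside the WT range. The log2 fold change was 0.02 ± 0.06 (SE). Arnt (ENSMUSG00000015522.18) lies at chr3:95434388-95497240 on the + strand and holds the processed pseudogene Gm42672, at 0.77 to 1.21 CPM.

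Ahrr, the repressor, was near the detection limit and did not pass the filter on low counts, so it was not tested. The R/R lungs gave 9, 12 and 13 counts and the WT lungs 4, 6 and 7, or 0.50, 0.72 and 0.77 CPM against 0.24, 0.33 and 0.41 CPM. The R/R lungs lay above the WT lungs, although single lungs of the 2 genotypes differed by as little as 2 counts. The sums were 34 and 17 counts, a ratio of 1.998 with a 95% exact binomial interval of 1.09 to 3.81 that covers counting error only and not the spread between mice. Ahrr (ENSMUSG00000021575.16) lies at chr13:74211118-74292331 on the - strand.

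**Figure D1:**
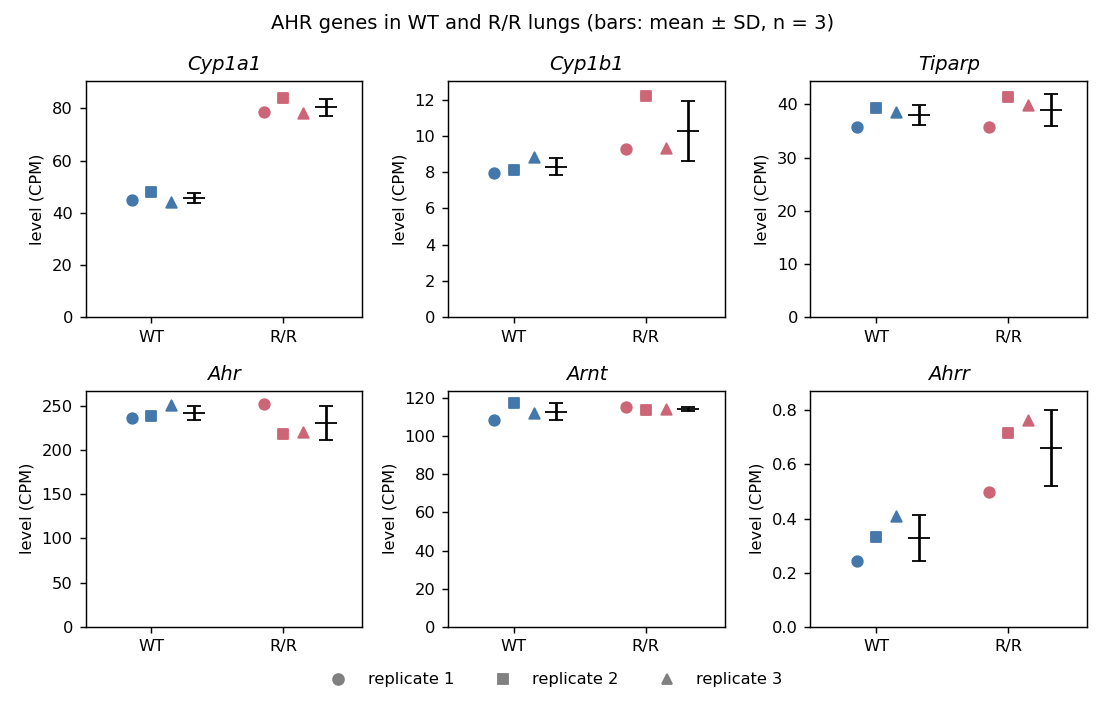
Level in CPM of the 6 genes in each lung, with WT in blue and R/R in red, the 3 replicates as a circle, square and triangle, and the mean ± SD (n = 3) as a black bar. For Cyp1a1 the R/R lungs sit at 78.3 to 84.2 CPM and the WT lungs at 44.1 to 48.0 CPM, whereas Tiparp, Ahr and Arnt overlap, and the Ahrr panel spans less than 1 CPM.

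Of the 6 genes, 5 were tested and 1, Cyp1a1, was called, beside 1.75% of all tested genes. Since the choice of genes used this contrast, nothing is read from that count. For 3 genes, Cyp1a1, Cyp1b1 and Ahrr, each R/R lung stood above each WT lung, and 2 of them were among the tested genes, of which 9.17% showed that order and 9.5% the opposite one. The median log2 fold change of the 5 tested members was 0.04, and that of all tested genes was 0.00454. In whole lung, more cells of a type and more RNA per cell cannot be told apart.

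Levels of different genes were compared per kilobase of exon (RPKM). In both genotypes the order of the means was Ahr, Cyp1a1, Arnt, Tiparp, Cyp1b1, Ahrr. Ahr led with 37.3 ± 3.10 RPKM (SD, n = 3) in R/R and 39.2 ± 1.32 RPKM (SD, n = 3) in WT lungs. Cyp1a1 followed with 28.8 ± 1.18 RPKM (SD, n = 3) in R/R and 16.4 ± 0.715 RPKM (SD, n = 3) in WT lungs. In WT lungs the ranges of Cyp1a1 and of Arnt, next in the order, came close, at 15.8 to 17.2 RPKM for Cyp1a1 and 13.6 to 14.7 RPKM for Arnt, without overlap. Tiparp averaged 8.95 RPKM in R/R and 8.71 RPKM in WT lungs, Cyp1b1 1.76 and 1.42 RPKM, and Ahrr 0.0700 and 0.0347 RPKM. Within a lung, the Cyp1a1 level per Ahr level was 0.690, 0.855 and 0.787 in R/R lungs and 0.422, 0.446 and 0.389 in WT lungs. The means of that ratio of RPKM values were 0.777 ± 0.0828 (SD, n = 3) and 0.419 ± 0.0288 (SD, n = 3). Because Ahr differed little, the ratio repeats the Cyp1a1 difference already seen at selection and is not a separate result.

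Across the 6 lungs, Pearson's r of log2 CPM with Cyp1a1 was 0.87 for Ahrr, 0.77 for Cyp1b1, 0.34 for Arnt, 0.30 for Tiparp and -0.50 for Ahr. After the mean of each genotype was removed, r was 0.07 for Ahrr, 0.50 for Cyp1b1, 0.45 for Arnt, 0.56 for Tiparp and -0.50 for Ahr. The value for Ahrr thus came from the difference between the genotypes and not from lungs of 1 genotype. These are descriptions over 6 points that share the library scaling.

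The rest of the pathway was described by 7 lists with 68 genes other than the members, of which 55 were tested. Of these 55, edgeR called 1, lower in R/R lungs, and 0 higher, beside 1.75% of all tested genes called. An unadjusted edgeR p under 0.05 was found for 12 of the 55, beside 14.2% of all tested genes. The list of other AHR-induced genes held 5 of these 12 and the monooxygenase partners another 5. DESeq2 called 4 of the 55, 3 of these higher, and limma-voom 1. The median log2 fold change over the 55 genes was 0.07, with 35 above 0 and 20 below. Against 9.17% and 9.5% of all tested genes, 7 of the 55 had every R/R lung above every WT lung and 5 had every one below.

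The called gene was Lrat, which encodes the enzyme that stores retinol as retinyl esters and is not a drug-metabolizing enzyme. It measured 78.4, 69.5 and 46.2 CPM in R/R lungs and 120, 121 and 111 CPM in WT lungs. All R/R lungs lay below the WT lungs, and R/R replicate 3 was far below the other two. Lrat fell by 0.86 ± 0.14 (SE) on the log2 scale (edgeR adjusted p = 0.0158), opposite in sign to Cyp1a1. The call was lost without R/R replicate 2 (edgeR adjusted p = 0.064) and without WT replicate 1 (edgeR adjusted p = 0.061).

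Other genes reported as AHR-induced in one tissue or another had a list median of 0.33 over 7 tested genes, the highest of the 7 lists. Xdh, xanthine dehydrogenase, had a log2 fold change of 0.38 (edgeR adjusted p = 0.108), and DESeq2 called it with an adjusted p of 0.00769. Socs2, a brake on cytokine signalling, had 0.33 (edgeR adjusted p = 0.267), and Cd36, a fatty acid transporter, 0.15 (edgeR adjusted p = 0.401). Summed over its 11 genes, this list measured 1905 to 2153 CPM in R/R and 1800.4 to 1883 CPM in WT lungs. Most of that sum came from Cd36 (means of 1319 CPM in R/R and 1193 CPM in WT lungs) and Xdh (477 and 366 CPM). Of the 7 tested genes, 5 lay above 0 and 2 below, Lrat among the latter.

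The AHR gene battery list holds mostly drug-metabolizing genes that respond together with Cyp1a1, and also Nfe2l2, which encodes a transcription factor. All 7 tested genes of the list had log2 fold changes above 0, with a median of 0.10. None was called (0 by edgeR, limma-voom and DESeq2, 1 at an unadjusted p under 0.05). That 1 gene was Nqo1, a quinone reductase, singled out after its values were seen. Nqo1 measured 5.72, 5.86 and 5.77 CPM in R/R lungs and 4.68, 4.08 and 4.10 CPM in WT lungs, without overlap, and its log2 fold change was 0.43 (edgeR adjusted p = 0.239). The most abundant members of the battery were Nfe2l2, the NRF2 gene, with 0.09, the epithelial cytochrome Cyp2s1 with 0.10 and the aldehyde dehydrogenase Aldh3a1 with 0.00430. Cyp1a2, the close relative that sits beside Cyp1a1 and is made mainly in liver, had 1 count in each of 2 WT lungs and 0 in the other four lungs.

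The monooxygenase partners, a list of electron donors, epoxide hydrolase and other lung oxidases, had 9 of 10 log2 fold changes above 0, with a median of 0.17. Of the 10, edgeR called 0, with 5 at an unadjusted p under 0.05. Over all tested genes, the median was 0.00454 and 14.2% had such a p. Fmo2, a flavin monooxygenase abundant in lung, had 0.34 (edgeR adjusted p = 0.159), Fmo1 0.19, and the club cell cytochrome Cyp2f2 0.19. DESeq2 called 2 genes of the list, Cyp4b1 and Fmo2, and limma-voom 0. The summed level was 4572 to 5057 CPM in R/R and 3731 to 4347 CPM in WT lungs, so the genotypes did not overlap.

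The lists for the chaperone complex, for coregulators and for relatives of AHR and ARNT gave no call. The chaperone complex had a median of -0.01 over 6 genes, with Hsp90ab1 at -0.12, Hsp90aa1 at 0.12 and the kinase Src at -0.11. Coregulators had a median of 0.00217 over 11 genes, with the corepressor Ncor1 at -0.07 and the acetyltransferase Ep300 at 0.09. Among relatives of AHR and ARNT, the hypoxia factors Epas1, Hif1a and Hif3a had 0.05, 0.07 and 0.11, and the median over 6 tested genes was -0.10. In these 3 lists edgeR, limma-voom and DESeq2 called 0 genes, and 0 had an unadjusted p under 0.05. The relatives Npas2 (-1.32) and Arntl (-0.82) were counted with the clock genes instead, where edgeR called both lower.

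Enzymes that make or remove AHR ligands from tryptophan had a median of -0.20 over 8 tested genes, and edgeR, limma-voom and DESeq2 called 0 of them, with 1 at an unadjusted p under 0.05. That gene, Kmo, which carries kynurenine down the oxidative branch, had a log2 fold change of -0.46 (edgeR adjusted p = 0.161) and lay lower in all R/R lungs. Maoa, a monoamine oxidase, had -0.14, and Kyat1, a kynurenine aminotransferase, 0.10.

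**Figure D2:**
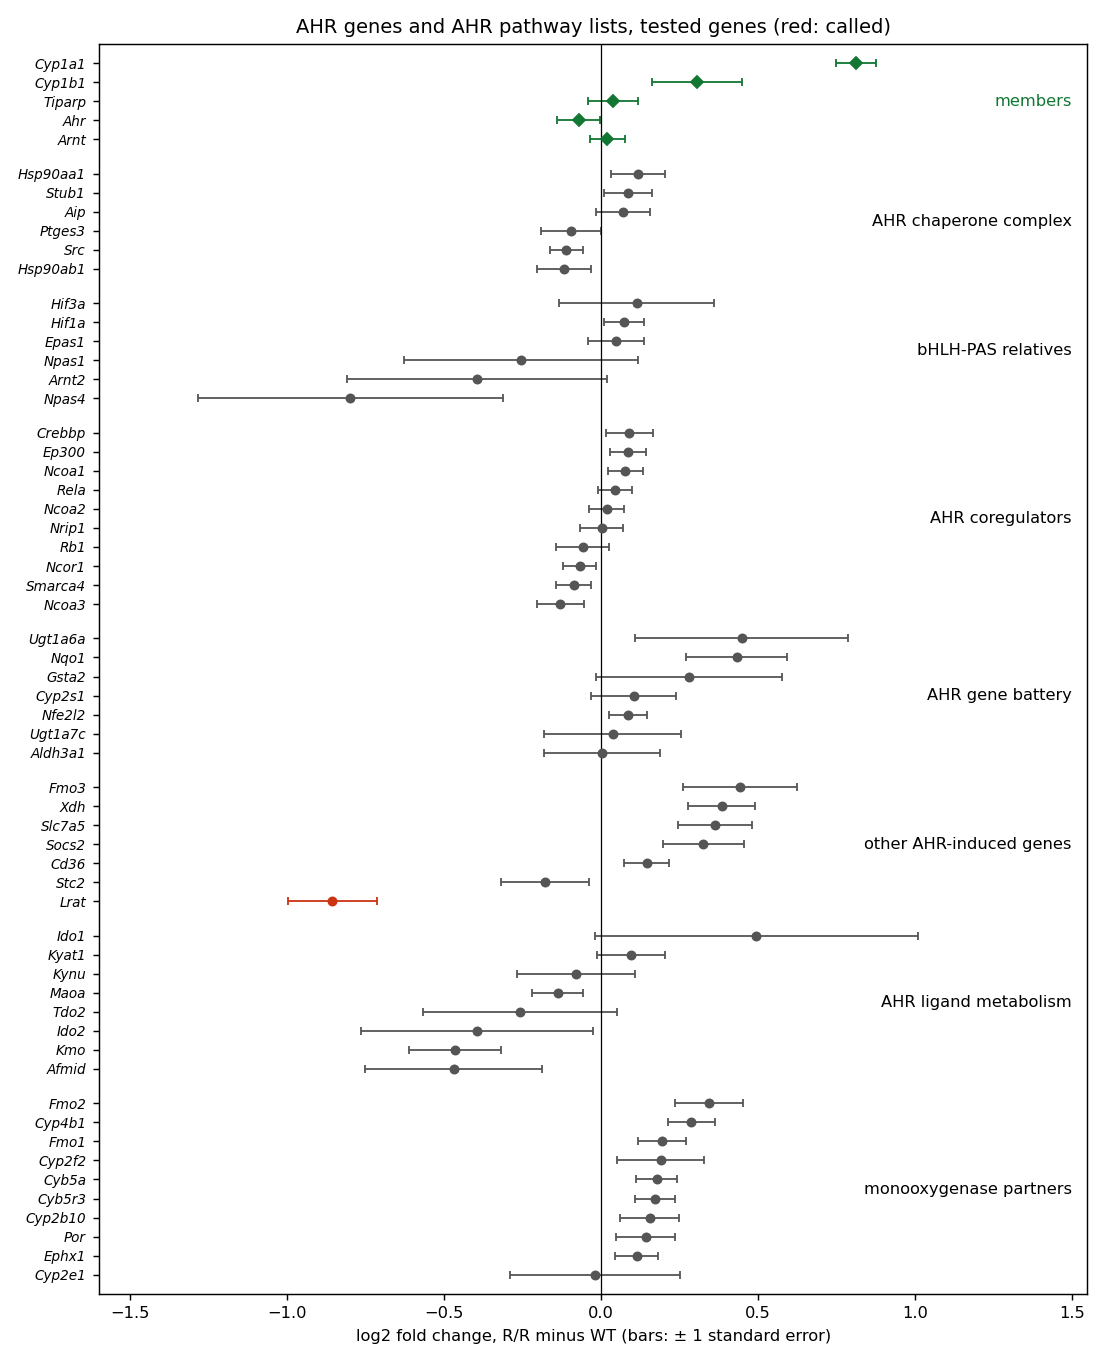
Log2 fold change (R/R minus WT, ± 1 SE) of the 5 tested members (green diamonds, shown as a description) and of tested genes of 7 AHR pathway lists (circles), with called list genes in red. Cyp1a1 lies at 0.81 and Lrat at -0.86, whereas the battery genes lie between 0.00430 and 0.45 and the coregulators shown lie within 0.13 of 0.

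Several marker lists moved with genotype beside Cyp1a1, and their part in its difference was not tested. Evening-phase clock genes summed to 1172 to 1329 CPM in R/R and 842 to 914 CPM in WT lungs, and 5 of 9 were called higher by edgeR, namely Dbp, Tef, Nr1d2, Bhlhe41 and Per3. Dbp, a clock-output transcription factor, rose by 0.83 (edgeR adjusted p = 0.00193), close in size to Cyp1a1. Morning-phase clock genes summed to 125 to 127 CPM in R/R and 142 to 154 CPM in WT lungs, and the bHLH-PAS factors Npas2 (-1.32) and Arntl (-0.82) were called lower with edgeR adjusted p of 0.00893 and 0.0444. Immediate early genes summed to 1244 to 1354 CPM in R/R and 874 to 1051 CPM in WT lungs, and 1 of 12, Nr4a1, was called higher (0.76, edgeR adjusted p = 0.0148). All 12 had log2 fold changes above 0 and an unadjusted edgeR p under 0.05, beside 14.2% of all tested genes with such a p. For 10 of the 12, every R/R lung lay above every WT lung, beside 9.17% of all tested genes.

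Markers of the endothelial cells known to express Cyp1a1 summed to 4611 to 4816 CPM in R/R and 4558 to 5283 CPM in WT lungs, with overlap, and 0 of 8 were called by edgeR, limma-voom or DESeq2, with 1 at an unadjusted p under 0.05. Club cell markers also overlapped, at 13417 to 17603 CPM in R/R and 11013 to 16096 CPM in WT lungs. Most of that sum came from 1 marker, with means of 13163 CPM in R/R and 10622 CPM in WT lungs. Of the 6 club markers, 3 had log2 fold changes above 0 and 3 below. EdgeR and limma-voom called 0 of them and DESeq2 called 1. Alveolar type 2 markers summed to 24420.0 to 25795 CPM in R/R and 19265 to 23995 CPM in WT lungs, without overlap. Alveolar macrophage markers were likewise higher, at 836 to 943 CPM in R/R and 574 to 737 CPM in WT lungs, and Chil3 was called. Sums were lower in all R/R lungs for fibroblasts, for smooth muscle and pericytes (1 of 6 called lower), for T cells and for B cells, at 78.0 to 104 CPM in R/R and 143 to 180.4 CPM in WT lungs for the last, with 4 of 6 called lower, Ms4a1, Cd79a and Pax5 among them. Sums for ciliated, alveolar type 1 and dendritic cells overlapped between genotypes, and the alveolar type 1 marker Aqp5 was called higher (0.27, edgeR adjusted p = 0.0459). Neutrophil sums also overlapped, at 75.6 to 108 CPM in R/R and 78.3 to 217 CPM in WT lungs, but all 6 markers had log2 fold changes below 0 (median -1.01) and an unadjusted p under 0.05, and edgeR and limma-voom called 0 of them and DESeq2 1. Cardiac muscle sums, at 57.3 to 109 CPM in R/R and 79.3 to 230.0 CPM in WT lungs, overlapped as well, with all 5 tested markers below 0 (median -1.22), 3 of them at an unadjusted p under 0.05 and 0 called by edgeR, limma-voom or DESeq2.

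**Figure D3:**
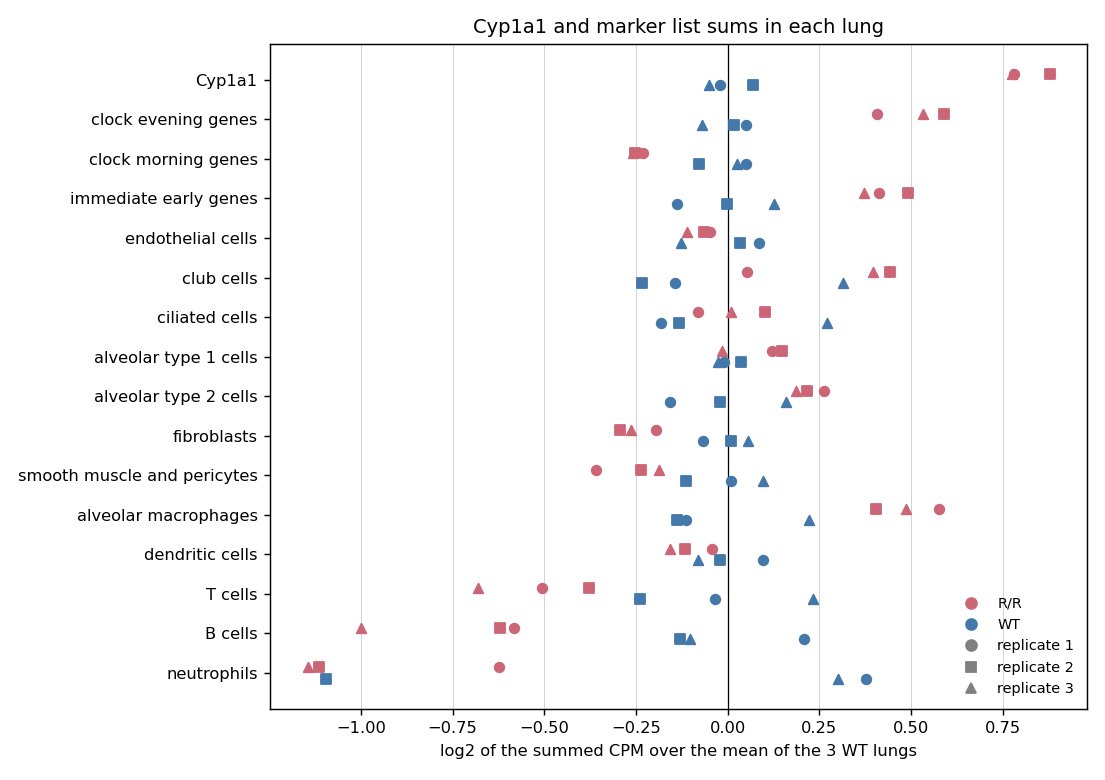
Log2 of the Cyp1a1 level and of the summed CPM of each marker list in each lung, relative to the mean of the 3 WT lungs, with R/R in red, WT in blue and a symbol for each replicate. Cyp1a1, evening clock and immediate early genes lie to the right in R/R lungs, endothelial sums overlap (4611 to 4816 CPM in R/R, 4558 to 5283 CPM in WT), and B cell sums lie to the left in R/R lungs.

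The genes whose levels were most like that of Cyp1a1 over the 6 lungs were Rsl24d1, a ribosome assembly factor (r = 0.994), Tmem176a (r = 0.993), the guidance cue Ntn1 (r = 0.990), Ctla2a (r = 0.989) and the selenoprotein gene Selenom (r = 0.989). The most opposite were the tubulin gene Tuba1a (r = -0.994), Arhgap4 (r = -0.990), the collagen prolyl hydroxylase gene P4ha3 (r = -0.989), the integrin gene Itgam (r = -0.988) and Cic, a transcriptional repressor (r = -0.987). They were chosen among 7275 genes whose r inside genotypes had the same sign. After the mean of each genotype was removed, r was 0.33 (Ctla2a) to 0.87 (Tmem176a) for the 5 similar genes. For the 5 opposite genes it was -0.93 (Cic) to -0.71 (Itgam). Each r rests on 6 lungs in 2 genotypes. Of the 17120 tested genes, 590 had an r of at least 0.9 in size over the 6 lungs, and no count was made at a higher bound. The log2 fold changes of the 5 similar genes were 0.14 to 0.48, so each moved less than Cyp1a1, whereas those of the 5 opposite genes were -0.81 for P4ha3 to -0.13 for Tuba1a. None of the 10 belongs to the AHR pathway lists, which hold only 55 of the 17120 tested genes. The members were left out of the search, so nothing is read from that.

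**Figure D4:**
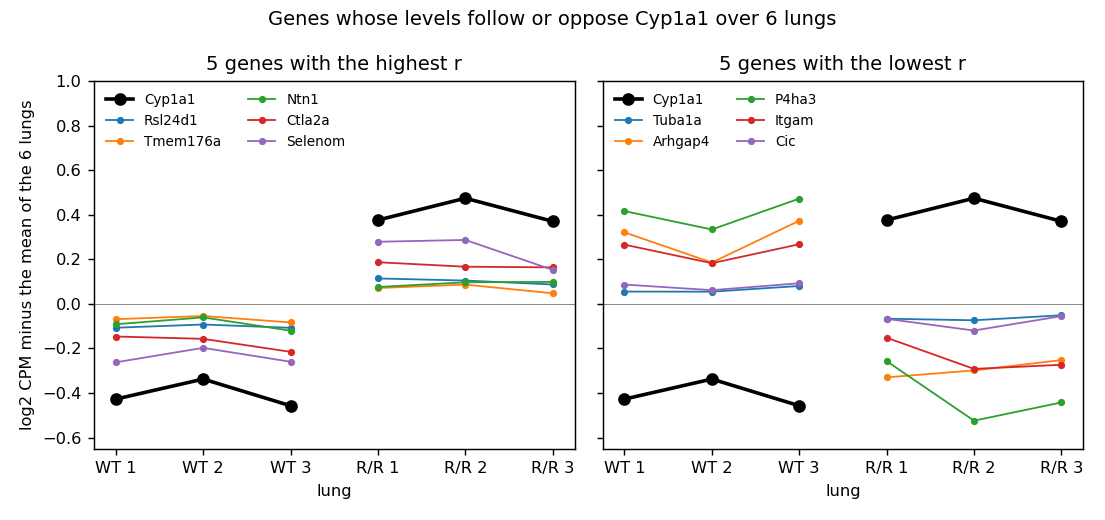
Log2 CPM minus the mean of the 6 lungs for Cyp1a1 (black) and for the 5 genes with the highest (left) and the 5 with the lowest (right) Pearson r with it, with lines joining lungs of 1 genotype only to guide the eye. The 10 genes separate the genotypes as Cyp1a1 does, which follows from their choice by r with it and is not a separate result. The steps are smaller for the 5 similar genes (log2 fold changes 0.14 to 0.48 against 0.81).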

How the data were processed

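The mRNA of 6 lungs was sequenced as read pairs of 150 bp. The authors used HISAT2 2.1.0 for alignment to mm10 (GRCm38). Per the file header, the deposited raw counts came from featureCounts 2.0.1 on GENCODE M25, counting pairs without strand and without multimapping reads. The submitters' processing notes also name DESeq2, and the study's methods name edgeR. For 1 deposited column the unit was noted as estimated count for a technical reason of parsing, but like the others it holds whole raw counts, and nothing was rounded. Symbols matched 55141 of 56262 identifiers.

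The members and lists were chosen with earlier results of these data known. In edgeR 4.0.16 (R 4.3.3), filterByExpr removed genes with low values (minimum count 10 and minimum total 15), TMM gave the scaling, and glmQLFit with glmQLFTest the comparison, at an adjusted p of 0.05. Log2 CPM used a prior count of 0.5, and RPKM used the exon length in the deposited table. Alternatives were limma-voom (limma 3.58.1), DESeq2 1.42.0, library size or upper-quartile scaling, other filters, a replicate block and leaving out each lung. The script was tested on simulated data. P-values measure the spread between the lungs, which the study calls biological replicates.

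Named genes are the members, Rbm47, called genes of the pathway, clock and immediate early lists, up to 3 uncalled examples a pathway list by level, the 5 genes with the highest and 5 with the lowest r with Cyp1a1 (mean log2 CPM of at least 1, same sign inside genotypes, none from chromosome 18), and cell type markers only at 0 or called. Promoter sequences are from RefSeq on GRCm38.p6. Lists for keratinocytes and thymus, at 3.83 to 5.44 and 16.7 to 21.9 CPM, served only as checks of the tissue. Some genes of the lists are not reported here by name or drawn.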

Additional observations from a re-analysis of the deposited data

How the results depend on the processing

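The log2 fold changes of the 5 tested members kept their direction under the other tools, scalings and filters and the replicate block, and moved by less than the replicate spread. For Ahrr, which was not tested, the log2 ratio of mean CPM was recomputed only without TMM (1.01, as with it) and without single lungs. Leaving out 1 lung gave ranges of 0.78 to 0.85 for Cyp1a1, 0.17 to 0.37 for Cyp1b1, -0.14 to -0.03 for Ahr, -0.00946 to 0.05 for Arnt, -0.00736 to 0.10 for Tiparp and 0.83 to 1.20 for Ahrr, so that the sign was not fixed for Arnt and Tiparp. The number of genes called, 300 (111 higher, 189 lower), was 541 (199 and 342) with DESeq2, 1109 (455 and 654) with no filter on low counts, and 65 to 621 (23 to 261 higher, 40 to 360 lower) when 1 lung was left out, lowest without WT replicate 1 and highest without WT replicate 3; the cause was not tested. Same-numbered lungs did not deviate together over all tested genes (r = -0.0139, -0.00355 and -0.0148). That gives no sign of pairing by number, but a pairing that touches few genes would give the same values. A replicate block gave 446 calls, 168 of them higher. The fit with no filter gave far smaller adjusted p, such as an edgeR adjusted p of 4.13e-28 for Lrat against 0.0158 in the main fit. The cause was not tested, and little weight is put on calls made by that fit alone. The pathway lists, with 1 call, had 4 with DESeq2 (Lrat, Xdh, Fmo2, Cyp4b1), 6 with no filter, 2 with the replicate block (Lrat, Xdh) and 0 to 2 without 1 lung. The immediate early and clock lists, with 8 calls, had 20 with no filter, 13 with the replicate block and 6 to 15 without 1 lung. Nr4a1 lost its call without 1 lung, Per3 without any of 3 lungs, and Arntl without any of 4 lungs and with limma-voom. With 1 lung left out, the sign turned for Hif3a (-0.13 to 0.26), Cyp2s1 (-0.000770 to 0.25) and Aldh3a1 (-0.12 to 0.17). Depth limits Ahrr, with 4 to 13 counts a lung, and Cyp1a2, with at most 1.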

Other observations

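Genes beside Cyp1a1 and other cytochromes P450 were examined after the data had been seen. Of 14 tested genes within 250 kb of Cyp1a1, edgeR called 0, as did DESeq2 and the fit with no filter, and 1 had an unadjusted p under 0.05, the kinase gene Csk, with a log2 fold change of -0.15. Their log2 fold changes ran from -0.50 for Gm26631 to 0.27 for Scamp5, all below the 0.81 of Cyp1a1.

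Of 129 other Cyp genes in the table, 32 were tested, and edgeR and limma-voom called 0 of them. Their median log2 fold change was 0.10, with 23 above 0 and 9 below. At an unadjusted edgeR p under 0.05 there were 4, namely Cyp4b1 (0.29), the sterol demethylase Cyp51 (0.36), Cyp3a13 (0.57) and Cyp27a1 (-0.19), beside 14.2% of all tested genes. DESeq2 called 1, Cyp4b1, and the fit with no filter on low counts called 3, Cyp4b1, Cyp51 and Cyp26b1. Cyp26b1, which degrades retinoic acid, measured 82.3, 13.5 and 24.7 CPM in R/R lungs and 124, 47.9 and 70.1 CPM in WT lungs, a spread wide enough for the genotypes to overlap. Its edgeR adjusted p was 1.67e-32 with no filter and 0.404 in the main fit, so nothing is read from that call.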
